A study of Homo sapiens with 6 samples.

Results

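Serous ovarian carcinoma is recognised by a small set of lineage transcription factors and by cell surface and secreted products, and the mRNA of 10 such genes was followed in OVCA432 cells exposed to microfibrillar associated protein 5 (MFAP5). The genes were PAX8, SOX17, MECOM, EMX2, WT1, ESR1, WFDC2, FOLR1, CP and LYPD1, taken as a list of names out of 19775 genes that had a probe set of their own on the array. Every probe set whose only annotated symbol was one of these names was used, 37 in all, of which 28 passed the brightness filter and were tested. OVCA432 is an established human cell line labelled as high grade serous ovarian cancer, and it was the only cell line examined. In the MFAP5 group the cells were held without serum for 24 h and then received recombinant human MFAP5, a secreted glycoprotein of extracellular microfibrils, at 200 ng/mL in fresh serum-free RPMI medium. The control group was treated in the same way with solvent in place of the protein, and total RNA of both groups was taken at 48 h. Each group had 3 samples described as independent, each hybridised to its own Affymetrix Human Genome U133 Plus 2.0 array, and only mRNA was measured.

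Müllerian epithelium, which lines the oviduct and uterus, depends on a group of transcription factors that serous carcinomas retain. PAX8 and SOX17 bind many of the same enhancers in ovarian carcinoma cells, MECOM is carried by a region often amplified in these tumours, and EMX2 acts in the development of the urogenital tract. WT1 and the estrogen receptor ESR1 are used beside PAX8 in diagnosis. Among the products, WFDC2 encodes the serum marker HE4, FOLR1 the folate receptor alpha, CP the copper-carrying ferroxidase ceruloplasmin and LYPD1 a lipid-anchored protein of the LY6/uPAR family.

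The upstream sequences of 4 of the genes whose mRNA differed are shown, those of 2 genes that were higher (PAX8, LYPD1) and of 2 that were lower (WT1, WFDC2) with MFAP5, to give the letters in which the motifs below were found. Each is the 250 bases before the outermost RefSeq start of the gene (GRCh38.p14), read 5′ to 3′ on the gene's strand: PAX8 at chr2:113278922-113279171 on the minus strand, LYPD1 at chr2:132671527-132671776 on the minus strand, WT1 at chr11:32435540-32435789 on the minus strand and WFDC2 at chr20:45469503-45469752 on the plus strand. Capitals mark matches to the motifs described below.
PAX8: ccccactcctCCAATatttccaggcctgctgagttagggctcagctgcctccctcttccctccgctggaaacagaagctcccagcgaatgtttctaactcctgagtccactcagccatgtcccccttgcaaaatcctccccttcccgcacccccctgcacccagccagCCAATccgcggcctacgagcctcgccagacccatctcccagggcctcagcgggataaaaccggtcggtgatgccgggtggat
LYPD1: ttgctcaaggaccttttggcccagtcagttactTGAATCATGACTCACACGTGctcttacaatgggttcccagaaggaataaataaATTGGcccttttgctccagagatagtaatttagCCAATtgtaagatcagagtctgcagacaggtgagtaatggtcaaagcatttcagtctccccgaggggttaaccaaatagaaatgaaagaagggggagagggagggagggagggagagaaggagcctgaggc
WT1: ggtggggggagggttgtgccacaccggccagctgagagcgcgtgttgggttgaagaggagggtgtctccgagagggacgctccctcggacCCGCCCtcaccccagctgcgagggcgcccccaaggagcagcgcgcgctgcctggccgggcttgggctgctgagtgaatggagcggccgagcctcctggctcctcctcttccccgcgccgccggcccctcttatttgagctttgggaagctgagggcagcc
WFDC2: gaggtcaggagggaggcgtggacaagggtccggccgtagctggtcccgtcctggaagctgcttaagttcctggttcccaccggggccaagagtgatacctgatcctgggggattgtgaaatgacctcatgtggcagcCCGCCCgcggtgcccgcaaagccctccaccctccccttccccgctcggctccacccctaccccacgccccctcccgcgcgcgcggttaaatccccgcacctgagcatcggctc

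The motifs searched on both strands were the cAMP response element (TGACGTCA), its core (TGACG), the AP-1 site (TGANTCA), the GC box (GGGCGG), the CCAAT box (CCAAT), the E-box (CACGTG) and the TATA box (TATAAA). In the upstream window of PAX8 only the CCAAT box matched, beginning 240 and 82 bases before the start, and CCAAT was found in 32.0% of all 35116 windows of this length. LYPD1 had 2 AP-1 matches that began 217 and 210 bases before the start, followed directly by an E-box at 203 bases, and 2 CCAAT boxes at 164 and 131 bases. AP-1 matches were present in 6.57% of all windows and E-boxes in 6.34%. In the WT1 window 1 GC box lay 160 bases before the start, and in the WFDC2 window 1 GC box lay 113 bases before it, against 42.6% of all windows with a GC box. No window of the 4 printed held TGACG, which any full cAMP response element contains. The inner LYPD1 start differed from the outer one, with 2 GC boxes and no CCAAT box. The windows were chosen with the changes known, so they are no comparison of higher with lower genes, and these are matches of letters and not measured binding sites.

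Taken by the brightest probe set of each gene, 4 of the 10 genes were higher with MFAP5 (PAX8, FOLR1, CP and LYPD1), 2 were lower (WT1 and WFDC2) and 4 did not pass the test (SOX17, MECOM, EMX2 and ESR1). Among all 12216 genes tested in the same way, 14.6% were higher and 15.3% lower, 29.9% in all (limma, adjusted p below 0.05, Benjamini-Hochberg over all probe sets tested). The MFAP5 and control arrays did not overlap for 6 of the 10 genes, against 45.9% of all genes. By probe set, 14 of the 28 tested were higher and 4 lower, against 13.5% and 11.8% (25.2% in all) of the 27307 probe sets tested, and the groups did not overlap for 17, against 41% of all. PAX8 alone supplied 8 of the 14 and CP 4, and probe sets of a gene can read the same transcripts and are not independent. The median log2 fold change was 0.10 over the 10 genes and -0.01 over all genes. The genes were listed with earlier results of these arrays known, so these counts describe them and are no test of the list. In bulk RNA of this kind, fewer cells that carry a transcript and less of it per cell cannot be told apart.

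**Figure D1:**
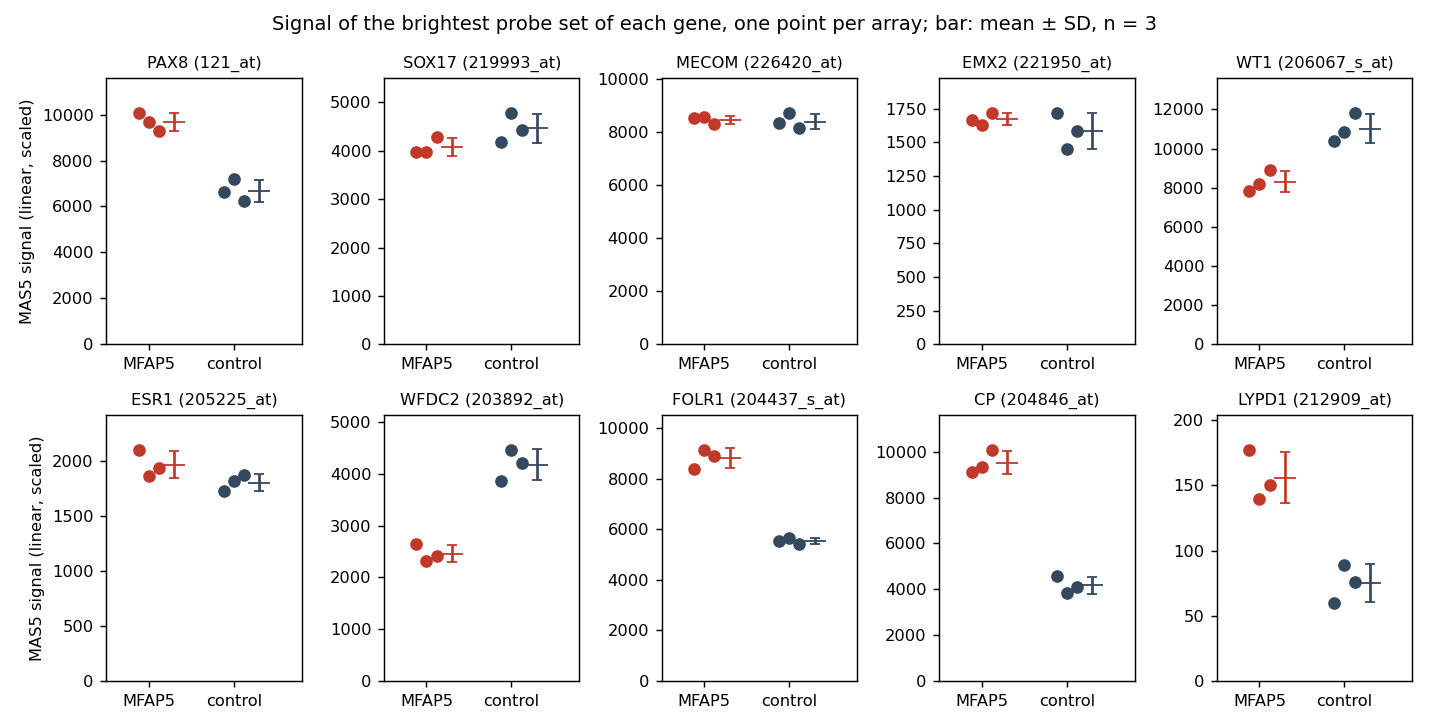
Each panel plots the MAS5 signal (vertical axis, linear, from 0) of the brightest probe set of a gene on the 3 MFAP5 arrays (left) and the 3 control arrays (right), with mean and SD beside the points. The MFAP5 points lie above the control points for PAX8, FOLR1, CP and LYPD1 and below them for WT1 and WFDC2, and the ranges of the groups overlap for SOX17, MECOM, EMX2 and ESR1.

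MAS5 signals had been scaled to a trimmed mean of 500.07 on every array. The median signal of an array still separated the groups, at 60.2 to 61.3 with MFAP5 and 53.5 to 56.3 in control. On each array between 27209 and 36073 probe sets exceeded the highest signal among 27 probe sets for Bacillus transcripts, which human cells lack (26.4 to 55.9). RNA integrity, read as GAPDH 3′ over 5′ signal on the log2 scale, averaged -0.10 with MFAP5 and -0.13 in control, and that of ACTB 0.28 and 0.30 (exact permutation test, two-sided, p = 0.5 and p = 0.6, where 0.1 is the smallest p that 3 against 3 allows). Over all probe sets 3679 were higher and 3209 lower with MFAP5. After centring on array medians, which moved the change of every probe set by 0.14 downwards on the log2 scale, the counts were 2302 higher and 5975 lower, so small changes depend on the scaling.

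The labelled cell type was checked against marker transcripts. All 8 epithelial markers (EPCAM, keratins, CDH1 and claudins) were above the Bacillus controls on all 6 arrays, and their summed signal was 87674 to 96660 with MFAP5 and 75477 to 85975 in control. Of 8 fibroblast markers 2 (COL1A1 and COL1A2) were above on all arrays, with sums of 358 to 419.5 with MFAP5 and 289 to 358 in control. Of the 5 immune markers with a probe set of their own only CD79A was above on all arrays, and of the 4 endothelial markers none was.

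PAX8 is the paired-box factor most often used to place a carcinoma in the Müllerian lineage. Its brightest probe set (121_at) had signals of 10065, 9659 and 9276 with MFAP5 and 6617, 7199 and 6225 in control. Every MFAP5 array lay above every control array. The change was 1.45-fold, a log2 fold change of 0.53 ± 0.07 (SE, n = 3 arrays each, limma adjusted p = 0.000443).

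All 8 PAX8 probe sets were called higher with the signals as deposited, with folds from 1.45 to 2.06, and 2 of these calls, on 207924_x_at and 207923_x_at, depended on the arrays or settings used. The upper end came from 214528_s_at, with 2379, 2383 and 1797 with MFAP5 and 1213, 997 and 964 in control (log2 fold change 1.04 ± 0.13 SE, limma adjusted p = 0.000287). Next to it stood 213917_at, whose signals of 2900.2, 2555 and 2462 with MFAP5 were well clear of 1439.8, 1546 and 1437 in control, a 1.79-fold change. The 3 probe sets with the suffix _x_at, a type that can share probes with other sequences, were higher by 1.46-fold to 1.73-fold. One of them, 207924_x_at, was the exception to the separation of the groups: its MFAP5 signals were 1248, 1426 and 857, and its control signals 741, 877 and 704. Its call (limma adjusted p = 0.0306) was lost without MFAP5 replicate 1 (0.0833) or 2 (0.116) and without control replicate 1 (0.0864) or 3 (0.0809), and also with no brightness filter (0.0513), no intensity trend (0.0978) or centring on array medians (0.0641). The call of 207923_x_at (limma adjusted p = 0.0124) was lost without MFAP5 replicate 2 (0.0513). The 95% intervals of 121_at (0.38 to 0.69) and 214528_s_at (0.76 to 1.32) do not overlap, so the size of the PAX8 change depends on which probe set is read.

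SOX17, a partner of PAX8 on chromatin, had signals of 3965, 3974 and 4294 with MFAP5 and 4176, 4779.7 and 4437 in control on its brightest probe set. The groups overlapped, since MFAP5 replicate 3 exceeded control replicate 1. The log2 fold change was -0.13, with a 95% interval of -0.29 to 0.03 (limma adjusted p = 0.213). Its other probe set, 230943_at, gave -0.07 with an interval of -0.23 to 0.10. Among the scalings tried, centring on array medians turned the SOX17 value into a call, at -0.27 (limma adjusted p = 0.0166).

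MECOM, a zinc finger factor and chromatin regulator, gave 8530.2, 8579 and 8303 with MFAP5 and 8349, 8728 and 8152 in control. These 6 values lay in a narrow band with the groups interleaved. The log2 fold change of 0.01 had a 95% interval of -0.12 to 0.14 (limma adjusted p = 0.913), which leaves out changes of the size seen for PAX8. A second bright probe set, 221884_at, gave 0.06 (-0.08 to 0.20). The third tested, 208434_at, was dim, with 67.6, 72.3 and 84.0 with MFAP5 and 71.2, 102.8 and 108.6 in control, and its interval of -0.87 to 0.23 is wide.

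EMX2, a homeobox factor, had signals of 1668, 1628 and 1717 with MFAP5 and 1716, 1452 and 1582 in control. Control replicate 2 was the lowest and the groups overlapped, with a log2 fold change of 0.08 (95% interval -0.10 to 0.26, limma adjusted p = 0.502). EMX2OS, the antisense transcript beside it, had a log2 fold change of -0.07 (limma adjusted p = 0.659).

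WT1 was the transcription factor of the list that fell. Its brightest probe set (206067_s_at) had 7842, 8197 and 8885 with MFAP5 and 10371, 10861 and 11811 in control. The highest MFAP5 array was below the lowest control array, and the change was 1.33-fold downwards, a log2 fold change of -0.41 ± 0.07 (SE, n = 3 each, limma adjusted p = 0.00259). The second WT1 probe set, 216953_s_at, had 893, 1052 and 1095 with MFAP5 and 1531, 1448 and 1304 in control. It was also lower without overlap (log2 fold change -0.50 ± 0.10 SE, limma adjusted p = 0.00543). WT1-AS, the antisense transcript of this locus, had a log2 fold change of -0.02 (limma adjusted p = 0.943).

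WT1 is also made by mesothelial cells, and mesothelial markers were therefore read beside it. Of the 5 markers, DES, LRRN4 and UPK3B were above the Bacillus controls on all arrays, and none was below them on all arrays. UPK3B rose 2.02-fold (limma adjusted p = 5.02e-05) and LRRN4 1.74-fold (limma adjusted p = 0.0195), while CALB2, a defining marker, lay between 40.3 and 54.6 with MFAP5 and between 32.5 and 60.4 in control. The summed signal of the list was 1312 to 1398 with MFAP5 and 674 to 820.3 in control. Most of this sum was UPK3B, with 956 to 1030 with MFAP5 and 469 to 535 in control. DES was not called (limma adjusted p = 0.185), and CALB2 and HP were below the filter. These transcripts were read in the OVCA432 cell line, and their relation to the WT1 result was not tested. Of the markers of ciliated oviduct cells, FOXJ1 was 1.55-fold lower (limma adjusted p = 0.0319) and CAPS 1.25-fold higher (limma adjusted p = 0.0374). The CAPS call was lost with centring on array medians (limma adjusted p = 0.155), on hybridisation controls (0.181), without the intensity trend or the filter, and when control replicate 3 or any single MFAP5 replicate was left out. The FOXJ1 call was lost without the filter and without MFAP5 replicate 2 or 3 or control replicate 1 or 2 (0.0531 to 0.102), and that of LRRN4 without MFAP5 replicate 1 or 2 or control replicate 1 (0.0539 to 0.0662).

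ESR1, the estrogen receptor alpha, had 2106, 1869 and 1941 with MFAP5 and 1727, 1819 and 1876 in control on 205225_at. MFAP5 replicate 2 fell inside the control range, and the log2 fold change was 0.12 (95% interval -0.04 to 0.29, limma adjusted p = 0.255). The other 3 tested ESR1 probe sets were dim and pointed in different directions, with log2 fold changes from -0.58 to 0.84, none called. The lowest of these, 215552_s_at, had 89.9, 99.4 and 127 with MFAP5 and 180.3, 165 and 127 in control (limma adjusted p = 0.0807), and was called without control replicate 3 (0.0461), with quantile normalization (0.0394) and with centring on array medians (0.0292). The highest, 211235_s_at, was called without control replicate 1 (0.034).

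**Figure D2:**
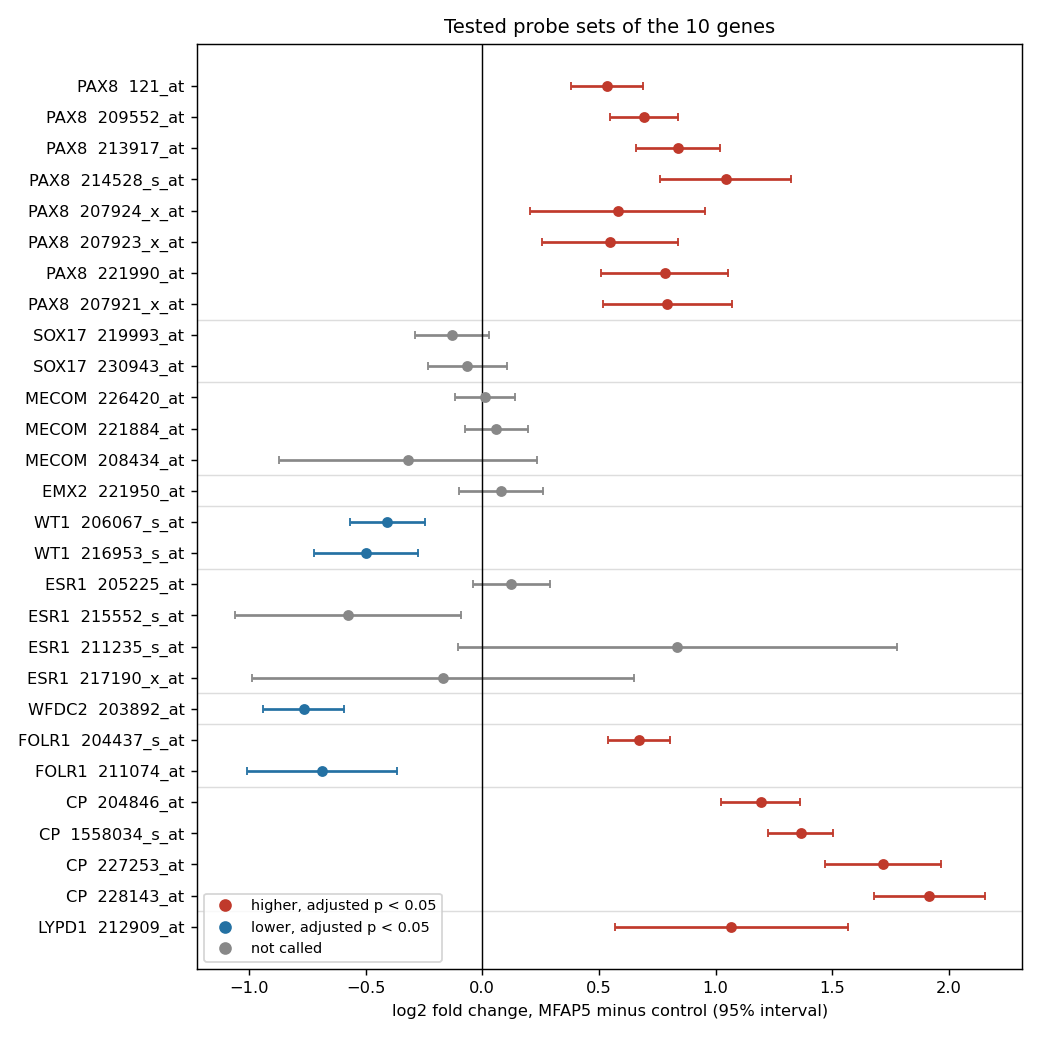
Points give the log2 fold change, MFAP5 minus control, of the 28 tested probe sets (rows, grouped by gene), and bars the 95% interval from limma with 3 arrays per group; red marks higher and blue lower at adjusted p below 0.05. All 8 PAX8 and 4 CP probe sets lie to the right of 0, both WT1 probe sets to the left, and the FOLR1 probe sets on opposite sides.

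Of the products, WFDC2 (HE4), a small secreted protein with WAP domains, was lower with MFAP5. Its signals were 2636, 2319 and 2414 with MFAP5 and 3869.7, 4463 and 4201 in control. The gap between the groups exceeded the range within either of them. The change was 1.70-fold downwards (log2 fold change -0.77 ± 0.08 SE, n = 3 each, limma adjusted p = 9.28e-05). Only this probe set of WFDC2 was bright enough to be tested, and the other 2 had signals of 6.77 to 82.7.

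FOLR1, which takes up folate at the cell surface and is a drug target in ovarian cancer, gave opposite answers on its 2 probe sets. On 204437_s_at the signals were 8408, 9149 and 8917 with MFAP5 and 5545, 5639 and 5429 in control, 1.59-fold higher (log2 fold change 0.67 ± 0.06 SE, limma adjusted p = 4.13e-05). On 211074_at they were 408, 436 and 609 with MFAP5 and 788, 739 and 778 in control, 1.61-fold lower (log2 fold change -0.69 ± 0.14 SE, limma adjusted p = 0.00658). Neither probe set had overlapping groups. Averaging them gave a log2 fold change of -0.01 (limma adjusted p = 0.958), so the direction for FOLR1 rests on the brighter probe set. The annotation gives a RefSeq transcript for 204437_s_at and a separate GenBank entry for 211074_at, and which transcripts each reads in these cells was not tested. Of its paralogs, FOLR3 was dim, with 66.7, 80.2 and 111 with MFAP5 and 33.4, 53.2 and 49.9 in control (log2 fold change 0.91, limma adjusted p = 0.0523), and the FOLR2 probe sets were below the filter.

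Ceruloplasmin (CP), which carries copper in plasma and oxidises iron for export, had the largest change of the 10 genes by brightest probe set. The signals on 204846_at were 9133, 9323 and 10082 with MFAP5 and 4571, 3851 and 4086 in control. The groups were far apart compared with their own ranges. CP rose 2.29-fold (log2 fold change 1.19 ± 0.08 SE, n = 3 each, limma adjusted p = 4.45e-06). LYPD1 came next at 1.07, and without control replicate 2 it exceeded CP (1.20 against 1.14).

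The other 3 CP probe sets rose by more. On 1558034_s_at the change was 2.57-fold and on 227253_at 3.28-fold. On 228143_at the signals were 889, 828 and 873 with MFAP5 and 241, 233 and 213 in control, a 3.77-fold change (log2 fold change 1.92 ± 0.11 SE, limma adjusted p = 1.97e-06). The 95% intervals of 204846_at (1.02 to 1.36) and 228143_at (1.68 to 2.15) did not overlap, so the probe sets differ in size and not in direction.

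LYPD1, a member of the LY6/uPAR family that modulates nicotinic acetylcholine receptors, gave a dim signal. It had 177, 139 and 150.5 with MFAP5 and 59.6, 88.9 and 76.1 in control, all above the Bacillus controls of their arrays. On control replicate 1 the margin was small, at 59.6 against 55.9 for the brightest Bacillus control. The change was 2.10-fold upwards (log2 fold change 1.07 ± 0.22 SE, n = 3 each, limma adjusted p = 0.00658), and the 95% interval of 0.57 to 1.57 was wide. With 50 added to each signal the log2 fold change was 0.72 (limma adjusted p = 0.00525). LYPD1 had no other probe set.

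The 9 probe sets below the filter belonged to ESR1 (5), MECOM (2) and WFDC2 (2), and their signals ranged from 3.68 to 92.9. They were left out of every count above.

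**Figure D3:**
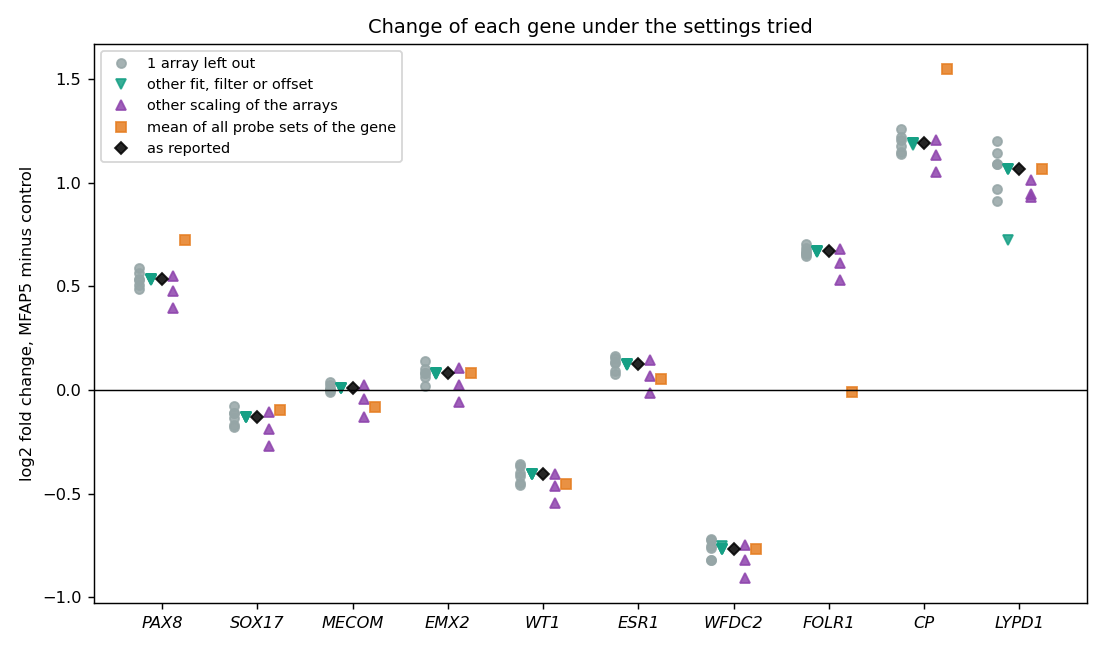
The log2 fold change of each gene (vertical axis, MFAP5 minus control) is drawn for each setting tried, black diamonds being the values reported. PAX8, CP and LYPD1 stay above 0 and WT1 and WFDC2 below it in every setting, while FOLR1 drops to -0.01 when its 2 probe sets are averaged and MECOM, EMX2 and ESR1 cross 0.

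The gene whose values over the 6 arrays lay closest to those of each called member was found by the root mean square difference of log2 signals, each taken relative to the control mean. For PAX8 it was TIPARP (0.02), for WT1 PPM1K (0.02), for FOLR1 ID3 (0.03), for WFDC2 BCKDHB (0.05), for CP TRIB2 (0.06) and for LYPD1 SYT11 (0.08). This measure mostly selects genes with a change of equal size, for example TIPARP at 1.46-fold and TRIB2 at 2.37-fold, and with 12216 genes to choose from a close match is easily found.

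Genes related to the 10 were read from further lists. The counts of each list stand beside 14.6% higher and 15.3% lower among all 12216 genes tested. Of 11 other transcription factors of the Müllerian lineage or of ovarian carcinoma that were tested, 4 were higher and 2 lower. FOXA2, a forkhead factor of the uterine glands and of endoderm, had 285, 327 and 309 with MFAP5 and 52.8, 57.4 and 48.4 in control. It rose 5.81-fold (limma adjusted p = 9.77e-06), but its control signals were at the level of background, above the Bacillus controls on only 2 of the 3 control arrays, so the size of this fold is uncertain. SOX9 rose 1.62-fold (limma adjusted p = 0.00319), LHX1, a homeobox factor of Müllerian duct formation, was 1.51-fold lower (limma adjusted p = 0.0102), and NR2F6, an orphan nuclear receptor, was 1.30-fold lower (limma adjusted p = 0.0088). The NR2F6 call was lost without the intensity trend (limma adjusted p = 0.0534). The median of this list was 0.06, and -0.08 when arrays were centred on their medians. That scaling turned the balance of the calls to 2 higher and 4 lower, and centring on hybridisation controls gave 2 higher and 2 lower.

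Of 25 other ovarian carcinoma marker genes tested, 14 were higher and 6 lower, with a median log2 fold change of 0.31, against -0.01 over all genes. Centring on array medians gave 12 higher and 7 lower with a median of 0.17, and centring on hybridisation controls 11 and 5 with 0.25. EPCAM, counted as higher (limma adjusted p = 0.0489), had overlapping groups and lost its call with both centrings (limma adjusted p = 0.190 and 0.143). Its call was also lost with quantile normalization (limma adjusted p = 0.0545), without the filter (0.0889) and without the intensity trend (0.152). The same held without MFAP5 replicate 1 or 2 or control replicate 1 or 3 (limma adjusted p = 0.102 to 0.152). SPP1, which encodes osteopontin, rose 4.93-fold, with 2059, 1993 and 1977 with MFAP5 and 443, 406 and 378 in control (limma adjusted p = 1.83e-07). MUC16 rose 3.63-fold and MSLN 2.33-fold, and SLC34A2, a phosphate transporter, rose 3.46-fold (limma adjusted p = 2.38e-06). CDH6, a cadherin described as a PAX8 target and named here after its values were seen, had a log2 fold change of 0.76 (limma adjusted p = 1.52e-05). PAX8 targets were not read as a list, and the relation of CDH6 to PAX8 was not tested. MUC1 and the retinoic acid binding protein CRABP2, also named after their values were seen, were lower, with log2 fold changes of -0.89 (limma adjusted p = 0.000415) and -0.97 (limma adjusted p = 0.000173). Higher and lower calls thus stood side by side among markers of the same tumour type.

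Around ESR1, 6 of 17 estrogen receptor cofactors and target genes tested were higher and 2 lower. PGR, the progesterone receptor and a classical ESR1 target, was 2.02-fold lower, with 112, 101.1 and 115 with MFAP5 and 281, 182 and 208 in control (limma adjusted p = 0.00481). TFF3, a secreted trefoil peptide, rose 2.00-fold (limma adjusted p = 0.00499), XBP1 1.65-fold (limma adjusted p = 0.000607) and STC2 2.68-fold (limma adjusted p = 2.28e-05). STC2 and XBP1 also respond to stress of the endoplasmic reticulum, and what raised them here was not tested. The list's median was 0.09, and -0.05 when arrays were centred on their medians. That scaling and centring on hybridisation controls each left 4 higher and 2 lower.

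Around FOLR1, 1 of 10 genes of folate uptake and use was lower and none higher by limma. That gene was SLC19A1, the reduced folate carrier, with 726, 733 and 659.7 with MFAP5 and 848, 945 and 1008 in control, 1.32-fold lower (limma adjusted p = 0.0131). That call was lost on arrays centred on hybridisation controls (limma adjusted p = 0.0707), while centring on array medians gave 5 lower genes in this list and none higher by limma. Around CP, 3 of 13 genes of copper and iron handling were higher and 5 lower, against 1 higher and 5 lower with centring on array medians and 1 higher and 4 lower with centring on hybridisation controls. ATP7B, the copper pump that loads ceruloplasmin in the liver, was 2.23-fold lower, with 540.3, 421 and 475 with MFAP5 and 993, 1031 and 1166 in control (limma adjusted p = 8.22e-05). CYBRD1, a ferric reductase, rose 2.11-fold (limma adjusted p = 2.72e-05), STEAP3, another metalloreductase, was 1.50-fold lower (limma adjusted p = 0.00211), and ATOX1, the copper chaperone that hands copper to ATP7B, was 1.39-fold lower (limma adjusted p = 0.00159).

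Most near relatives of WFDC2 and LYPD1 were too dim to be tested, and those tested were not called on the signals as scaled by the authors. Of 12 WAP domain genes with a probe set of their own, 2 were tested. SLPI had a log2 fold change of -0.05 (limma adjusted p = 0.534) and PI3 of 0.19 (limma adjusted p = 0.216). Of 13 LY6/uPAR genes with a probe set of their own, 5 were tested and none was called. The smallest p-values belonged to LYPD6B (0.19, limma adjusted p = 0.0513) and LYPD6 (-0.23, limma adjusted p = 0.0719). Quantile normalization called 1 LY6/uPAR gene higher, and centring on array medians called 1 LY6/uPAR gene and 1 WAP domain gene lower. Of 9 paralogs, antisense neighbours and partners of the transcription factors, SPRY1 (1.25-fold), BASP1 (1.17-fold) and PODXL (1.17-fold), which are linked to WT1 as targets or as corepressor, were higher. The calls of all 3 were lost on arrays centred on hybridisation controls (limma adjusted p = 0.201, 0.412 and 0.476). Those of BASP1 and PODXL were also lost with centring on array medians and without the intensity trend, that of BASP1 without control replicate 2 (0.0542), and that of PODXL when any single MFAP5 replicate or control replicate 1 or 2 was left out (0.0516 to 0.0848).

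**Figure D4:**
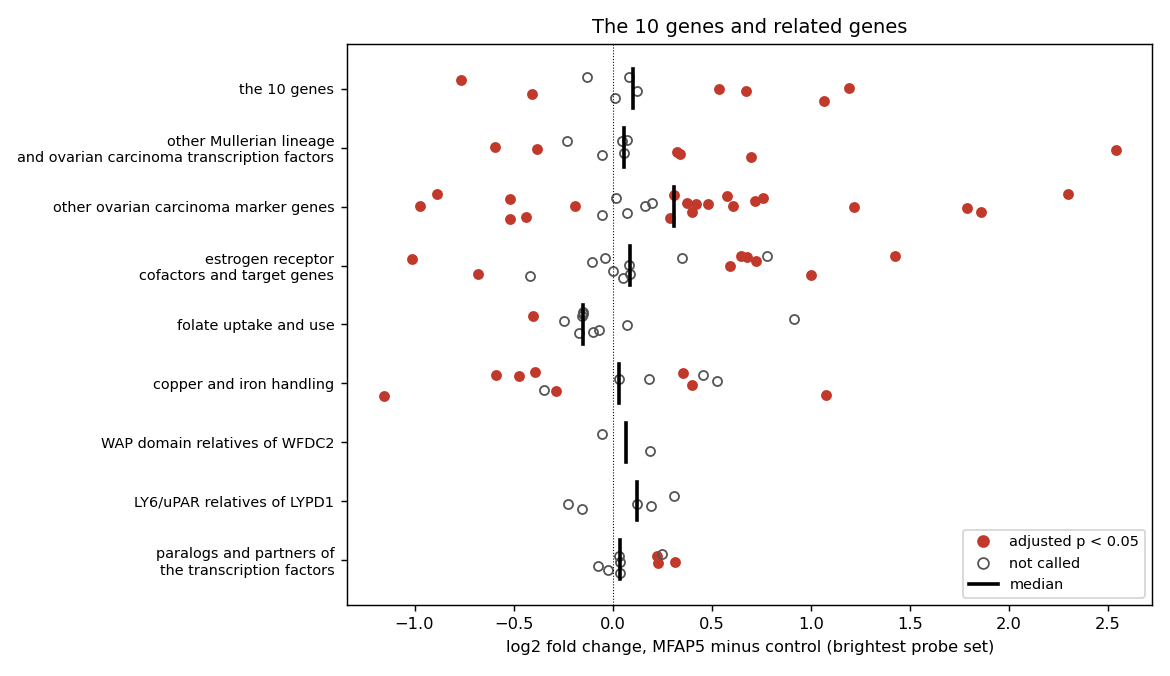
Each point is a gene by its brightest probe set, at its log2 fold change (horizontal axis, MFAP5 minus control), in the 10 genes (top row) and in the 8 lists of related genes; filled points passed the test and black bars are medians. Higher and lower calls occur side by side among the 10 genes, the other marker genes and the copper and iron genes.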

How the data were processed

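The authors deposited 1 MAS5 signal per probe set and array, a linear intensity, and MAS5 is the only tool in the submitters' processing notes, with no version given. Values were used as scaled by the authors (trimmed mean 500.07 with 2% left out at each end), which hides a change shared by most transcripts. Groups and replicate numbers came from the sample titles. Gene names are those of the platform annotation, where 41091 probe sets had a single symbol. Signals were taken to log2, the 62 Affymetrix control probe sets were left out, and probe sets with a mean below the median of all (a signal of 53.7) were removed, leaving 27307. The comparison used limma 3.58.1 under R 4.3.3 (lmFit, eBayes with an intensity trend, two-sided, Benjamini-Hochberg over all probe sets tested, threshold 0.05). A gene was represented by its probe set of highest average log2 signal.

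The 10 genes and the lists around them were chosen with earlier results of these arrays known. The text names up to 4 called genes of largest change per list, and the 2 of smallest p in a list without calls. Upstream sequences are from RefSeq, where 7 of the 10 genes matched (not CP, FOLR1 and SOX17). Alternatives changed the offset, the filter, the variance trend, the scaling, the probe set that stands for a gene, the replicate block and the arrays used. The number of arrays limits the precision.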

Additional observations from a re-analysis of the deposited data

How the results depend on the processing

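Of the 10 genes, PAX8, WT1, WFDC2, CP and LYPD1 kept direction and call under every alternative in which they were tested (LYPD1 was too dim for the stricter filter at the 75% quantile). FOLR1 did so except for the mean of its probe sets, -0.0084. Among the genes not called, MECOM turned negative with median centring (-0.13), hybridisation control centring (-0.045) and the mean of its probe sets (-0.082), and ranged from -0.011 to 0.038 with 1 array left out. EMX2 (-0.058) and ESR1 (-0.014) turned negative with median centring, which also called SOX17. The counts of member probe sets ranged from 12 to 14 higher and from 4 to 5 lower with 1 array left out, and median centring gave 13 and 6. Over all probe sets, the counts were 2422 higher and 2830 lower above the 75% quantile, where fewer probe sets were tested, 2302 higher and 5975 lower with median centring, and 1920 higher and 2011 lower with hybridisation control centring. With 1 array left out they were 2532 to 3557 higher and 2118 to 3117 lower, the lowest being without MFAP5 replicate 2. The cause of these shifts was not tested. The replicate numbers share no stated origin (correlations of deviations 0.09, -0.01 and 0.17), and the replicate block left 14 and 4 member probe sets called, with 4214 and 3774 over all. The median signal of an array was 53.5 to 61.3. On control replicate 1 it was close to the brightest Bacillus control (55.3 against 55.9), and on every other array it was higher than that control. Dim probe sets are the least certain.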

Other observations

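The other windows before member starts differed in the motifs they held. The inner LYPD1 start had the core TGACG 75 bases before it, overlapping an E-box at 72 bases, and 2 GC boxes. EMX2 had the core at 139 bases and the outermost ESR1 start at 172 bases, and the core occurs in 21.2% of all windows. The innermost of the 4 WT1 starts had the core at 94 bases and an AP-1 match at 60 bases. The full cAMP response element, found in 1.65% of all windows, matched none of the 18 member windows. These windows were read after the expression values were known, and the arrays do not tell which start was used.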
